A study of Homo sapiens with 8 samples.

Results

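The comparison described here was between WT_4 and WT_5, the 2 wild-type (WT) clones of U2OS cells for which FAIRE-seq peak lists were deposited. On chromosomes 1 to 22 and X, overlapping peaks of the 4 WT libraries (1 bp or more) merged into 46384 regions. A region counted as clone-only when it had a peak in both libraries of 1 clone and in neither library of the other. The rule found 8195 clone-only regions, 449 of them WT_4-only (0.968% of all regions) and 7746 WT_5-only (16.7%), and 13906 regions had a peak in all 4 WT libraries. These counts depend on all 4 libraries being required, since leaving out 1 library loosens the rule and raises the counts. Leaving out WT_4 untreated gave 2018 WT_4-only regions, WT_4 IFNγ 4179 and WT_5 IFNγ 1006, and leaving out WT_5 untreated gave 18238 WT_5-only regions. Adding the 4 libraries of the ZBTB48 knockout (KO) clones gave 52105 regions in the whole series.

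FAIRE (formaldehyde-assisted isolation of regulatory elements) recovers DNA that is not crosslinked to nucleosomes, and its peaks mark open chromatin. The study applied it to 8 libraries from 4 U2OS clones, the WT clones WT_4 and WT_5 and the ZBTB48 KO clones KO_C5 and KO_D2, to ask how chromatin opening depended on ZBTB48, a zinc finger protein, and on interferon gamma (IFNγ). Per clone, untreated cells were sequenced once and cells given 250 U/ml IFNγ once, for 24 h according to the labels, although the text of the study gives a longer time, so the duration is uncertain. The 2 libraries of a clone therefore differed in treatment, and no clone was measured again under the same treatment. Each group is 1 clone, so a difference between WT_4 and WT_5 cannot be told apart from a difference between the cultures or libraries in which they were measured. U2OS is an aneuploid human osteosarcoma line, and cells grown from different founders of such a line can differ in their chromosomes.

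In most cell types the promoters of widely used genes are open, and these promoters commonly lie in CpG islands, stretches rich in G and C that keep their CpG dinucleotides. Regions away from promoters, among them enhancers, are as a rule less rich in G and C and differ more between cell types. AP-1, TEAD and RUNX factors are known for binding such distal regions in cells of mesenchymal origin, whereas SP/KLF, NF-Y, ETS and NRF1 factors are known for binding promoters.

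The reference sequence around the summit of the strongest clone-only regions is shown because the classes differed in base composition. Of the 10 strongest regions of each class, the first 4 were taken whose window of 181 bases holds no annotated untranslated sequence, leaving out chromosomes that are not printed here. All are from GRCh38, plus strand, and capitals mark matches on either strand to the motifs AP-1, TEAD, RUNX, ETS, SP/KLF, NF-Y, NRF1 and CTCF, whose letters are given with their counts. Regions are named after the closest annotated transcription start site (TSS). The WT_4-only sequences are
SYT3, chr19:50608037-50608217: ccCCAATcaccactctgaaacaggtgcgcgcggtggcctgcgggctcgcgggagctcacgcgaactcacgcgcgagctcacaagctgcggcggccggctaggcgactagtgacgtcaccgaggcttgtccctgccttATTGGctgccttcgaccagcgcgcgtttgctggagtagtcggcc
ENSG00000286863, chr1:72282814-72282994: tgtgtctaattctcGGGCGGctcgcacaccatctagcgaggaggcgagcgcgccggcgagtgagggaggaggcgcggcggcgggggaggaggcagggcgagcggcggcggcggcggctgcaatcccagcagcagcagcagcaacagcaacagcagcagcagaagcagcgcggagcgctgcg
ENSG00000279063, chr19:55467876-55468056: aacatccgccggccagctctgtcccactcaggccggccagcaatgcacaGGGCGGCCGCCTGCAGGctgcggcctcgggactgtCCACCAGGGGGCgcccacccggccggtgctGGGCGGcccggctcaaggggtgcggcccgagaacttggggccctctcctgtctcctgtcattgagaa
ENSG00000275046, chr6:59291920-59292100: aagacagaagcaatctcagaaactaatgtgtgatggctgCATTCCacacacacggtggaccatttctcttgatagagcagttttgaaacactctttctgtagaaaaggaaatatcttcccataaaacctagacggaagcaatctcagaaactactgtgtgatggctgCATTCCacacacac
and the WT_5-only sequences are
DAAM2, chr6:39887743-39887923: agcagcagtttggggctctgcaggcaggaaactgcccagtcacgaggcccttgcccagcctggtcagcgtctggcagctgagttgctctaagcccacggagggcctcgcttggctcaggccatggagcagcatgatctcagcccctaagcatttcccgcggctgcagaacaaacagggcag
ZBTB16, chr11:114160063-114160243: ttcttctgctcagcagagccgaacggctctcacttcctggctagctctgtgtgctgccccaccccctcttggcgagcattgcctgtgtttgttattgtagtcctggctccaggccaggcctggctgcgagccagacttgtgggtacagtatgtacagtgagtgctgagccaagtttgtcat
ENSG00000260922, chr16:77236117-77236297: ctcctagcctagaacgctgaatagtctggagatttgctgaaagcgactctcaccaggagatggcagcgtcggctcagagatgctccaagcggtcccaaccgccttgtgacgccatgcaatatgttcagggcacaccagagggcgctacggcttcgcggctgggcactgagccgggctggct
TMCC2, chr1:205284820-205285000: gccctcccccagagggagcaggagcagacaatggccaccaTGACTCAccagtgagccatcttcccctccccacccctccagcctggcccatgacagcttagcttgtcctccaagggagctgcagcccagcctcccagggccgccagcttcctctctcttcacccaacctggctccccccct
The first 3 WT_4-only sequences hold 22, 23 and 14 CpG dinucleotides at a GC content of 66.9%, 71.8% and 71.8%. The fourth, which lies 905077 bp from the nearest TSS on chromosome 6, holds 2 CpG dinucleotides at 42.0% GC. Both of its TEAD matches lie in copies of a near-identical stretch, so read mapping there is uncertain. The WT_5-only sequences hold 6, 4, 12 and 1 CpG dinucleotides at 62.4%, 56.4%, 60.2% and 65.7% GC, and the TMCC2 sequence carries the AP-1 match TGACTCA.

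WT_4 gave fewer peaks than WT_5 under both treatments. The lists held 21715 peaks in WT_4 untreated, 18913 in WT_4 IFNγ, 29567 in WT_5 untreated and 37533 in WT_5 IFNγ. The ranges of the clones did not overlap, with 20314 ± 1981 peaks in WT_4 and 33550 ± 5633 in WT_5 (mean ± SD, n = 2 libraries each). The difference of 13236 peaks had p = 0.333 in a two-sided exact permutation test over the 4 libraries, the smallest p this design allows. WT_4 peaks were wider (median 476 and 417 bp, untreated and IFNγ) than WT_5 peaks (363 and 376 bp) and had a higher median fold enrichment over the local background (14.5 and 13.4 against 10.1 and 10.5). The depth of the libraries is unknown because peak lists hold no read totals. As a stand-in, the number of fragments over each summit (the summit pileup) was solved from the deposited fold enrichment and −log10 p. Its lowest value, which reflects the caller's limit, was 5, 5, 6 and 5 fragments in the same order of libraries. The lowest local background was 0.656, 0.621, 1.02 and 0.770 fragments in that order, higher in both WT_5 lists than in both WT_4 lists. The part of this difference in the peak numbers was not tested.

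Libraries of the same clone shared more covered sequence than libraries of different clones. The Jaccard index, the sequence that both of a pair of libraries cover divided by the sequence covered in at least 1 of them, was 0.568 within WT_4 and 0.565 within WT_5. The 4 pairs between clones lay between 0.415 and 0.478, below both. The difference of the means was 0.124, with p = 0.333 in a one-sided exact permutation test over the 3 ways of pairing 4 libraries, again the smallest possible. With the lists shortened to equal length by −log10 p (18913 peaks each, the length of the WT_4 IFNγ list), the means were 0.629 within and 0.503 between clones.

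The open promoters of GAPDH and ACTB, which every cell uses, and of COL1A1 and RUNX2, genes of the osteoblast lineage, were present in 4 of 4 WT libraries. SPARC, an osteonectin gene of that lineage, had a promoter peak in 2 of 4, both WT_5, and COL1A2 in 0. Among markers of other lineages PTPRC, CD3E and KRT5 had 0, whereas EPCAM, an epithelial marker, had a promoter peak in 4 of 4.

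Shortening the lists changed the balance of both classes. At equal length the 4 lists gave 27958 regions, 1623 WT_4-only (5.81%) and 2813 WT_5-only (10.1%), and 12108 regions were in all 4. Of the 449 WT_4-only regions of the whole lists, 326 kept both peaks in the shortened lists, as did 2760 of the 7746 WT_5-only regions. Most WT_4-only regions at equal length had a peak in a whole WT_5 list that ranked below the limit of the shortened list. Of the 1623, 814 had a peak in both whole WT_5 lists, 483 in 1 of them and 326 in neither. Of the 2813 WT_5-only regions at equal length, 2760 had no peak in either whole WT_4 list.

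WT_4-only regions were mostly weak peaks, and WT_5-only regions ranked below the middle of the untreated list and near the middle of the IFNγ list. The median WT_4-only peak stood at the 21.9th percentile of −log10 p in the untreated list and the 11.6th in the IFNγ list, with a median summit pileup of 11 and 9 fragments. The median WT_5-only peak stood at the 36.7th and 47.6th percentiles of its lists, with 19 and 21 fragments. Regions in all 4 libraries had median pileups of 59, 38, 60 and 72 fragments in WT_4 untreated, WT_4 IFNγ, WT_5 untreated and WT_5 IFNγ. In neither WT_4 list did a WT_4-only peak reach the top 10% by −log10 p, and 4 WT_5-only regions did so in the WT_5 IFNγ list.

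The named regions were chosen by the strength of their peaks in the clone that has them, so their values are a description. The strongest WT_4-only region (chr19:50607961-50608354) lay 16936 bp from the TSS of SYT3, a synaptotagmin, with 76 fragments untreated and 43 with IFNγ. The strongest at the start of a protein-coding gene was that of ENOSF1, an enolase superfamily enzyme, with 66 and 34 fragments (chr18:712269-713017). RDH13, a retinol dehydrogenase, followed with 43 and 41 fragments, and EPOP, a protein bound to Polycomb repressive complex 2, with 51 and 25. Each of these peaks lay above the median WT_4-only pileup of its library. NEGR1, a neuronal adhesion protein, whose TSS lies 203 bp from a region that is 2 bp from the TSS of a lncRNA (ENSG00000286863), had 50 and 36 fragments and a peak in 4 of 4 KO libraries. TUBG2, a gamma tubulin, had 35 and 21 fragments and a peak in 0 KO libraries, as EPOP and the glutathione transferase gene MGST1 (20 and 36) did. FSTL3, an inhibitor of activin, had 30 and 20 fragments, the neurofilament gene NEFM 34 and 23, the lysosomal protease gene CTSB 34 and 16, and ADAP1 17 and 24.

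WT_5-only regions were stronger at their upper end. The region at TIMM10, a chaperone of mitochondrial protein import, had 103 fragments untreated and 116 with IFNγ (chr11:57530628-57531158). SETDB1, a histone H3 lysine 9 methyltransferase, had 90 and 123 fragments at its promoter, and POLR2B, a subunit of RNA polymerase II, had 97 and 97. Every one of the 10 strongest WT_5-only regions had a peak in 3 or 4 of the KO libraries, against 0 to 4 for the 10 strongest of WT_4. DAAM2, a formin, had 108 and 119 fragments 83 bp from its start, and ZBTB16, a zinc finger transcription factor, had 114 and 88. SASS6, a protein of centriole assembly, had 110 and 88. Away from promoters, an intron of TMCC2 held a region 12095 bp from the TSS with 76 and 117 fragments (the sequence with the AP-1 match shown above), and an intron of BCAR3, an adaptor protein gene, held one 36676 bp away with 81 and 108. TXNRD2, a mitochondrial thioredoxin reductase (79 and 123), ZNHIT6, a snoRNP assembly factor (88 and 100), RBM3, a cold-inducible RNA-binding protein (72 and 105), and BORCS8, a subunit of a complex that positions lysosomes (65 and 106), completed the 10 strongest promoters.

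WT_4-only regions lay closer to TSSs than WT_5-only regions. Of the WT_4-only regions 53.7% lay within 1 kb of an annotated TSS (95% Wilson interval 49.1 to 58.2%), against 29.8% (28.8 to 30.8%) of WT_5-only regions, 84.5% of regions in all 4 libraries and 47.7% of all regions. These intervals cover counting error only, since regions of a clone are not replicates. Without WT_4 untreated the rule is looser, and 1484 regions had a peak in WT_4 IFNγ only. Under that looser rule 28.8% of WT_4-only and 33.7% of WT_5-only regions lay within 1 kb, so the order did not hold. The median distance was 747 bp for WT_4-only and 4342 bp for WT_5-only regions. At equal length 65.1% of WT_4-only and 35.9% of WT_5-only regions lay within 1 kb, beside 60.9% of all. The share within 1 kb of a TSS also differed between the whole lists, at 71.3%, 73.3%, 58.0% and 52.9% of peaks in WT_4 untreated, WT_4 IFNγ, WT_5 untreated and WT_5 IFNγ. At the far end, 24 WT_4-only regions (5.35%) and 108 WT_5-only regions (1.39%) lay over 100 kb from a TSS.

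**Figure D1:**
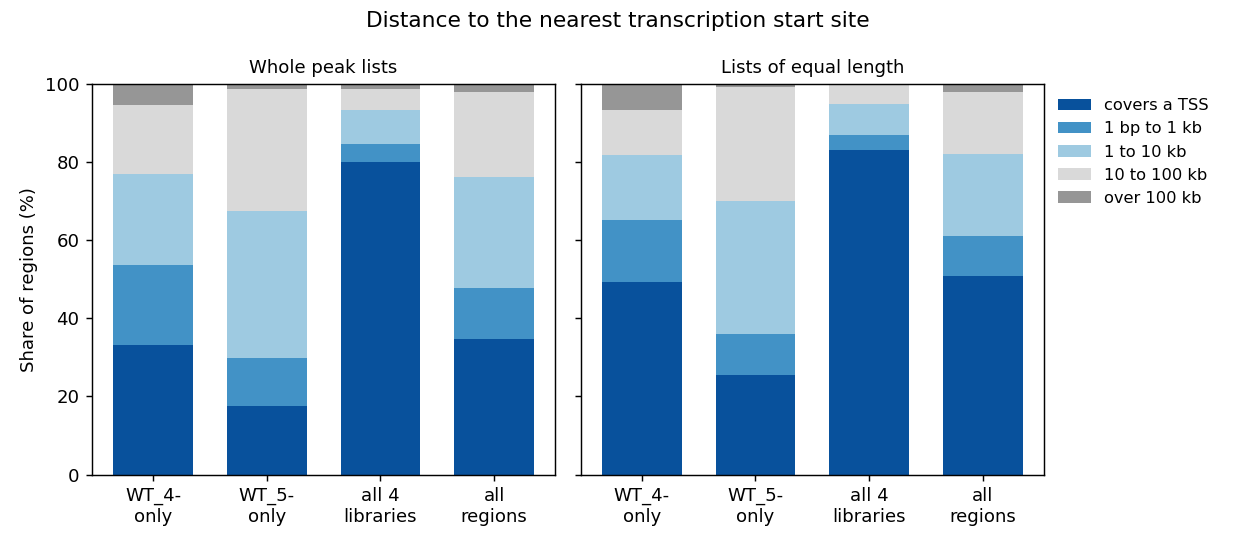
Share of regions (y axis, %) by distance to the nearest TSS for WT_4-only, WT_5-only, all-4-library and all regions, with whole lists on the left and lists of equal length on the right. In the whole lists 53.7% of WT_4-only regions, 29.8% of WT_5-only regions and 84.5% of regions in all 4 libraries fall within 1 kb.

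The gene annotation differed in the same way. The nearest TSS belonged to a protein-coding gene for 70.2% of WT_4-only and 55.7% of WT_5-only regions (64.0% of all regions), and to a long non-coding RNA gene for 18.3% and 28.3% (22.7% of all). The summit lay in a coding exon for 12.9% of WT_4-only and 1.69% of WT_5-only regions (4.65% of all). It lay in an intron for 35.9% and 49.6% (43.0% of all). It lay outside annotated genes for 24.9% and 35.4% (34.7% of all and 41.1% of regions in all 4 libraries). The WT_5-only share outside genes was thus near that of all regions.

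Base composition differed between the clone-only classes. The median GC content of the 301 bp around the summit was 69.4% in WT_4-only, 56.1% in WT_5-only, 68.8% in all-4-library and 61.5% in all regions. The ratio of observed to expected CpG dinucleotides had medians of 0.726, 0.354, 0.859 and 0.560. Among regions over 1 kb from a TSS the median GC content was 66.1% in WT_4-only and 55.5% in WT_5-only regions. It was 64.8% in all-4-library and 55.5% in all regions at that distance. Away from promoters WT_5-only regions thus had the same median as all regions. WT_5-only regions made up 34.6% of regions of 50 to 60% GC and 0.765% of those of at least 70%. WT_4-only regions made up 0.123% and 2.28% of the same ranges, and 1.99% of regions below 40% GC. At equal length WT_4-only regions reached 11.7% below 40% GC and 11.1% at 70% or above, with 0.757% between 50 and 60%.

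**Figure D2:**
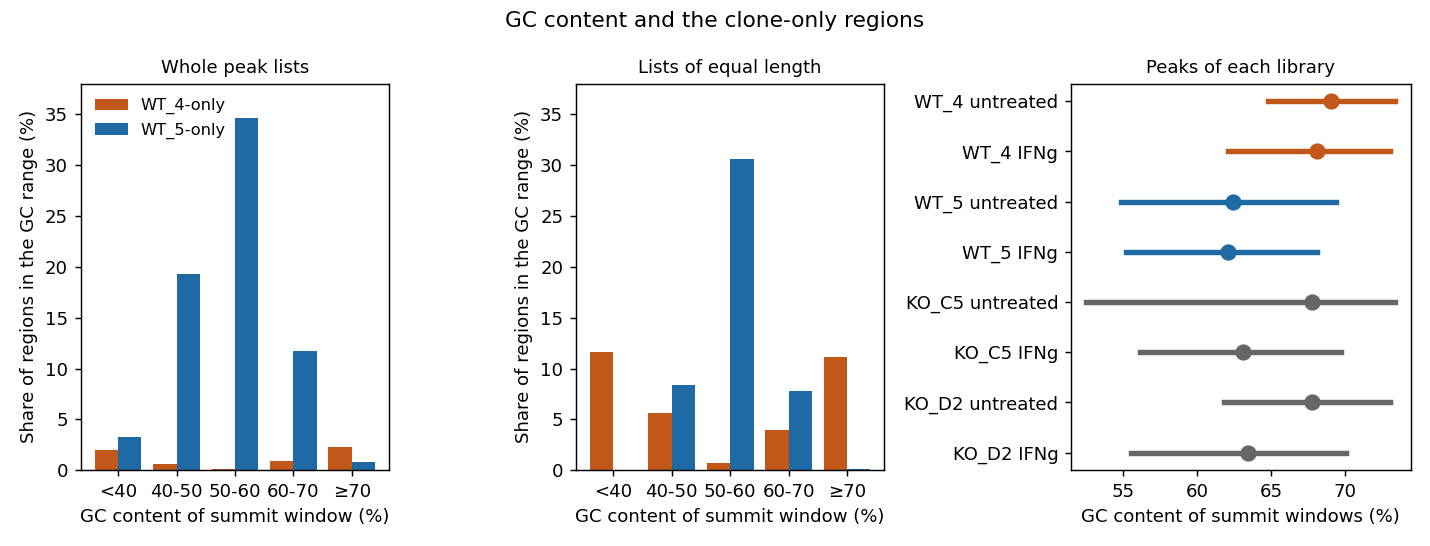
Left and middle, share of the regions of each GC range (y axis, %) that were WT_4-only or WT_5-only, in whole lists and in lists of equal length, by GC content of the summit window (x axis, %). Right, GC content of the summit windows of each library's peaks. WT_5-only regions peak at 34.6% of the regions of 50 to 60% GC, and the library medians run from 62.1% to 69.1%.

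GC content differed between whole libraries as well. The median over all peaks was 69.1% and 68.1% in WT_4 (untreated and IFNγ) and 62.5% and 62.1% in WT_5. In the KO clones the untreated libraries, at 67.8% in each, lay with WT_4, and the IFNγ libraries, at 63.1% in KO_C5 and 63.5% in KO_D2, lay with WT_5. At regions with a peak in all 4 WT libraries the log2 ratio of summit pileup, WT_5 over WT_4, centred on its median, was 1.11 untreated and 0.68 with IFNγ at 50 to 60% GC and −0.26 and −0.23 at 70% or above. Below 50% GC the 2 treatments differed in sign, at 0.47 and −0.58. The part of GC content in the clone-only calls was not tested.

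The motif letters searched on both strands of the summit windows were TGANTCA (AP-1), GGAATG (TEAD), TGTGGT (RUNX), CCGGAAG (ETS), GGGCGG (SP/KLF), CCAAT (NF-Y), TTAGGG (the telomere repeat) and GTGAGT as a control, with the consensus of NRF1, of CTCF and of the interferon response element (ISRE). AP-1 was in 32.3% of WT_5-only and 7.6% of WT_4-only windows, beside 17.4% of all regions. TEAD (24.1% and 10.0%, with 15.7% of all) and RUNX (27.4% and 11.6%, with 18.4%) had the same order. The control letters did so as well, at 21.3% and 11.6% with 15.8% of all. Within distal regions of 50 to 60% GC, AP-1 was in 38.6% of 3183 WT_5-only windows and 30.6% of 9048 windows of all regions, against 23.9% and 20.6% for the control. The WT_4-only regions of that range were 12, of which 8.33% held AP-1. Between 40 and 50% GC the clone-only classes lay close, with AP-1 in 45.9% of 37 WT_4-only and 43.5% of 1032 WT_5-only windows. It was in 37.2% of 5517 distal windows of all regions in that range. At equal length the order turned there, with 47.6% of 126 WT_4-only, 34.2% of 158 WT_5-only and 44.6% of 2079 windows of all regions. From 60 to 70% GC AP-1 was in 2.78% of 72 WT_4-only, 25.6% of 1158 WT_5-only and 14.7% of 6703 distal windows of all regions. The control was in 8.33%, 17.6% and 15.3% of these. With the shortened lists AP-1 was in 7.95% of 151 WT_4-only and 27.4% of 496 WT_5-only windows of that range.

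SP/KLF had the opposite order. It was in 57.9% of WT_4-only and 27.1% of WT_5-only windows, with 46.4% of all. NRF1 was in 1.3% of WT_4-only and 1.1% of WT_5-only windows against 11.7% of regions in all 4 libraries and 4.1% of all. ETS was in 2.7% and 6.2% (all 4 libraries 16.4%, all 8.1%) and NF-Y in 16.0% and 26.6% (31.3% and 25.2%). Both clone-only classes thus held fewer of the promoter motifs ETS and NRF1 than regions open in all 4 libraries. CTCF was in 7.3% and 8.3% (all 8.1%), ISRE in 1.8% and 3.2% (all 3.7%) and TTAGGG in 7.8% and 7.7% (all 6.7%). Base composition differed between the classes as given above, and its part in the motif shares was not tested.

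Of 19962 protein-coding genes, 85 had a promoter (500 bp either side of a TSS) with a peak in both WT_4 libraries and neither WT_5 library (0.426%), and 805 were WT_5-only (4.03%). Promoters with a peak numbered 12651, 11912, 13058 and 13646 in WT_4 untreated, WT_4 IFNγ, WT_5 untreated and WT_5 IFNγ. At equal length the balance turned, with 576 WT_4-only (2.89%) and 474 WT_5-only promoters (2.37%). Counts of promoter groups are therefore given for both sets of lists.

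Ribosomal protein genes had 13 of 84 promoters WT_5-only (15.5%, against 4.03% of all protein-coding genes) and 0 WT_4-only. At equal length 12 (14.3%, against 2.37%) were WT_5-only and 0 WT_4-only. Their promoter peaks numbered 66, 66, 83 and 83 in WT_4 untreated, WT_4 IFNγ, WT_5 untreated and WT_5 IFNγ. Both WT_5 libraries thus lay above both WT_4 libraries, as they did over all protein-coding genes (12651, 11912, 13058 and 13646). RPL34 had 63 and 101 fragments in WT_5, RPL11 75 and 62, and RPS7 63 and 66. In the KO clones the list counted 66 (KO_C5 untreated), 83 (KO_C5 IFNγ), 76 (KO_D2 untreated) and 83 (KO_D2 IFNγ). The median GC content of the 13 WT_5-only promoter windows was 56.8%, and that of the 62 with a peak in all 4 WT libraries 61.1%.

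The zinc finger genes of chromosome 19, mostly KRAB repressors, had 51 of 246 promoters WT_5-only (20.7%, against 4.03% of all protein-coding genes) and 0 WT_4-only. At equal length 38 (15.4%, against 2.37%) were WT_5-only and 0 WT_4-only. Their promoter peaks numbered 136, 132, 198 and 204 in the same order of WT libraries, and 122, 200, 159 and 189 in KO_C5 untreated, KO_C5 IFNγ, KO_D2 untreated and KO_D2 IFNγ. ZNF45 had 68 and 95 fragments in WT_5, ZNF577 69 and 84, and ZNF44 61 and 87. Promoter windows of the 51 had a median GC content of 58.8%, against 65.1% for the 119 with a peak in all 4 WT libraries. Genes of this family resemble each other, and the authors removed reads of low mapping quality, so read mapping at them is uncertain.

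Interferon-response genes had 7 of 55 promoters WT_5-only (12.7%, against 4.03% of all protein-coding genes) and 0 WT_4-only. At equal length 6 (10.9%, against 2.37%) were WT_5-only and 0 WT_4-only. The list counted 20, 24, 29 and 37 promoter peaks in the 4 WT libraries. HLA-B (42 and 68 fragments) and HLA-C (37 and 55), which present peptides at the cell surface, had a peak in both WT_5 libraries, treated and untreated, and in neither WT_4 library. IRF9, a subunit of the ISGF3 transcription factor (47 and 77), IFI6 (40 and 29), APOL2 (25 and 43) and the antiviral GTPase gene MX1 (11 and 15) were WT_5-only as well. HLA genes differ between chromosomes and have near-identical copies, so read mapping there is uncertain. The MHC class II genes HLA-DPA1 and HLA-DPB1, 2 of 12, share 1 WT_5-only peak (12 and 13 fragments) in the whole lists, and at equal length 0 genes of that list were WT_5-only.

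Genes of the osteoblast lineage and of development gave small counts that changed with the length of the lists. Of all protein-coding genes 0.426% were WT_4-only and 4.03% WT_5-only in the whole lists, and 2.89% and 2.37% at equal length. Among 26 osteoblast genes 3 were WT_5-only in the whole lists (11.5%) and 0 at equal length. These were the alkaline phosphatase gene ALPL (16 and 23 fragments), the osteocalcin gene BGLAP (15 and 19) and SPARC (26 and 26). Lineage transcription factors had 5 of 55 WT_5-only (9.09%), GATA6 (26 and 16), PAX9 (19 and 38), SOX4 (30 and 20), TBX10 (11 and 18) and TBX5 (12 and 9). At equal length 6 were WT_4-only (10.9%) and 1 WT_5-only (1.82%). Collagens had 1 WT_4-only (COL26A1, 9 and 5) and 2 WT_5-only promoters (COL16A1, 22 and 20, and COL8A1, 19 and 31) of 44. These were 2.27% and 4.55% of the list, against 6 WT_4-only (13.6%) and 0 WT_5-only at equal length. HOX genes had 2 of each class among 39 (5.13% each), and 3 WT_4-only (7.69%) and 0 WT_5-only at equal length. In the whole lists these were HOXA2 (14 and 8) and HOXB2 (17 and 14) in WT_4, and HOXC4 (14 and 6) and HOXD11 (20 and 18) in WT_5.

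The remaining lists held few clone-only promoters, in the whole lists at WT_5-only shares nearer the 4.03% of all protein-coding genes. At equal length the background was 2.89% for WT_4-only and 2.37% for WT_5-only promoters. CDKN2B, a cyclin-dependent kinase inhibitor gene, had a WT_5-only promoter (61 and 54) in both sets of lists. Its list of 30 genes had 2 WT_5-only promoters (6.67%) in the whole lists and 1 at equal length (3.33%). BATF2 (11 and 38) was the WT_5-only gene of 17 AP-1 factors (5.88%), with 0 at equal length. Cancer-testis antigens had 4 of 62 WT_5-only (6.45%), MAGEA4 (13 and 18), MAGEB2 (22 and 35), PAGE2 (21 and 31) and PAGE2B (15 and 9), and 2 at equal length. Replication-dependent histone genes had 4 of 69 WT_5-only (5.80%), H3C4 (12 and 16), H4C2 (15 and 12), H4C5 (25 and 16) and H4C9 (10 and 14), and 1 at equal length. Clustered protocadherins (53 genes, 7 with a promoter peak in any WT library) and reported ZBTB48 targets (5 genes) had 0 clone-only promoters in both sets of lists. Lists this small, or with so few promoter peaks, can show little either way. Imprinted genes had 0 of 48 in the whole lists and 3 WT_4-only (6.25%) at equal length.

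Chromosomes 7 and 17 held more of the WT_4-only regions than of all regions. Chromosome 7 held 92 of the 449 (20.5%, against 5.87% of all regions) and chromosome 17 held 71 (15.8%, against 6.64%). With regions of at least 60% GC alone the shares were 22.2% and 17.5%, against 6.01% and 7.20% of all such regions. Chromosome 1 held 3.56% of WT_4-only regions, against 12.3% of WT_5-only and 10.0% of all regions. At equal length chromosome 7 held 10.4% of WT_4-only regions, against 6.28% of all regions. Chromosome 17 held 8.75%, nearer its 7.05% of all regions. Chromosome 18 held 4.01% of WT_4-only regions against 1.84% of all regions in the whole lists, and 4.25% against 1.95% at equal length. With regions of at least 60% GC alone these shares lay closer, at 2.22% against 1.38% in the whole lists and 1.80% against 1.49% at equal length.

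**Figure D3:**
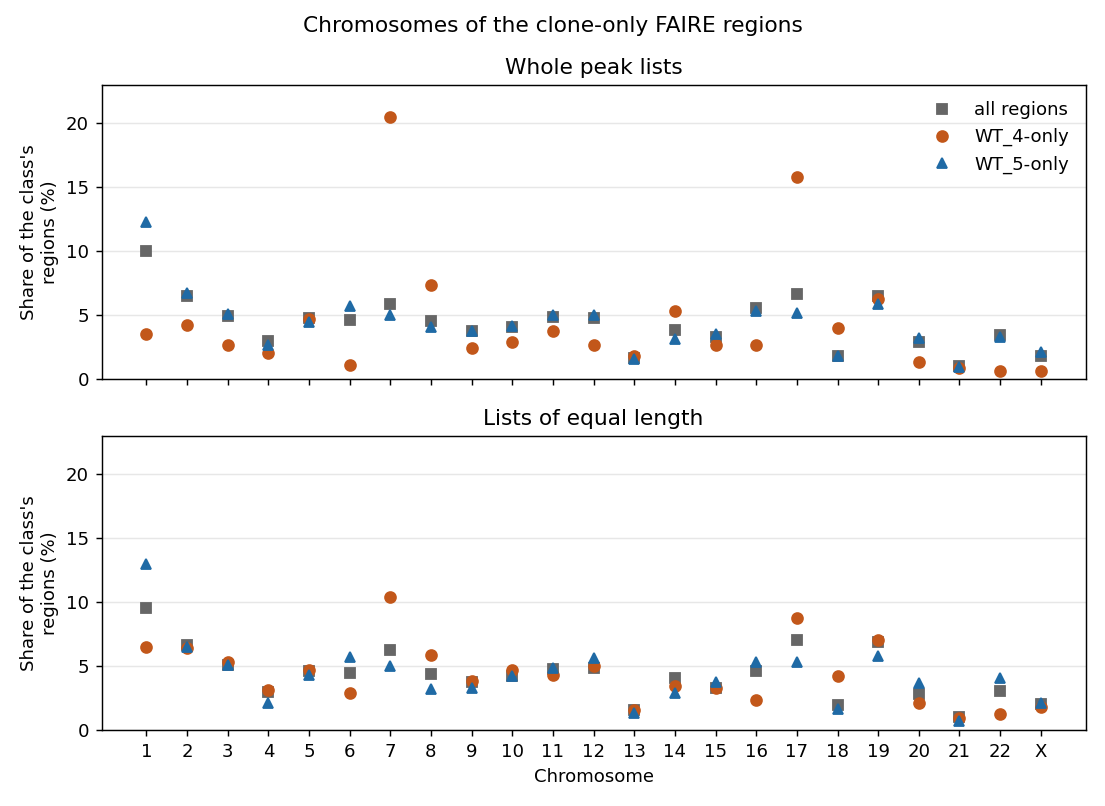
Share of the regions of each class (y axis, %) on each chromosome (x axis), with whole lists above and lists of equal length below. WT_4-only points stand apart on chromosomes 7 (20.5%) and 17 (15.8%) in the whole lists.

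On chromosome 7 they lay near the end of the short arm. Of the 1-Mb windows with the most WT_4-only regions, the first 3 were adjoining, with 18 of 162 regions WT_4-only at 0 to 1 Mb, 26 of 251 at 1 to 2 Mb and 11 of 167 at 2 to 3 Mb. The next were at 143 to 144 Mb of chromosome 8 (10 of 230) and 82 to 83 Mb of chromosome 17 (8 of 139). The windows with the most WT_5-only regions were at 85 to 86 Mb (29 of 142), 87 to 88 Mb (25 of 99) and 88 to 89 Mb (25 of 215) of chromosome 16, 28 to 29 Mb of chromosome 6 (24 of 75) and 48 to 49 Mb of chromosome 19 (24 of 99). The 3 windows on chromosome 16 and that on chromosome 6 held 0 WT_4-only regions.

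Summit pileup at regions open in all 4 WT libraries moved along the chromosomes in the same places. In 456 windows of 5 Mb with at least 10 such regions, the median log2 ratio WT_5 over WT_4, centred within bins of 5 percentage points of GC content (a choice made after seeing the data), correlated between untreated and IFNγ libraries with Pearson's r = 0.590 (456 windows, description only, since neighbouring windows and both ratios share clones). It was below 0 under both treatments in 144 windows, which held 35.5% of all regions, 79.1% of WT_4-only regions and 27.4% of WT_5-only regions. It was above 0 under both in 172 windows, with 39.5% of all regions, 11.5% of WT_4-only and 46.1% of WT_5-only regions. The WT_4-only and WT_5-only rule and this ratio use the same 4 libraries, so this is a description.

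**Figure D4:**
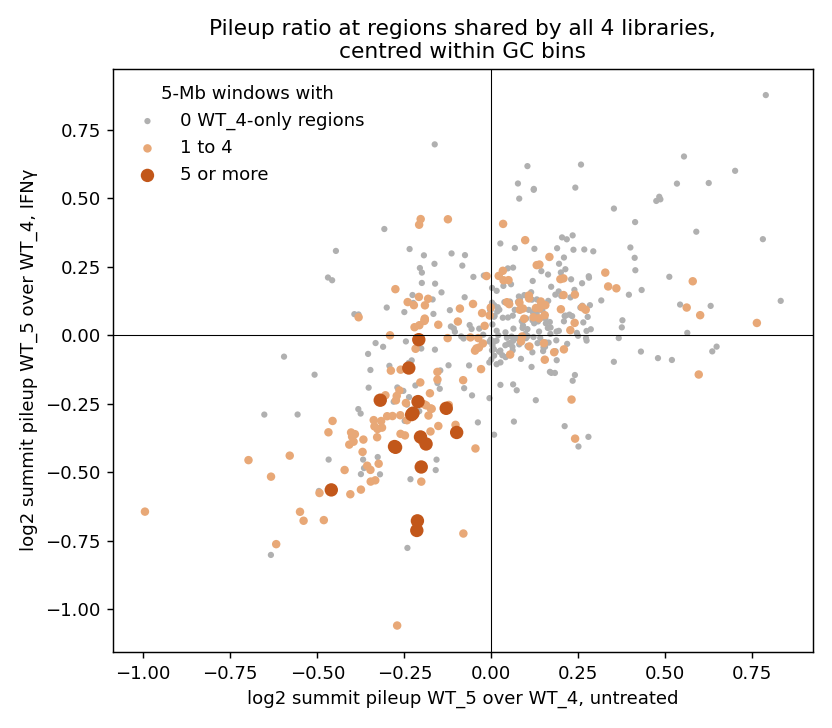
Median log2 summit pileup of WT_5 over WT_4 in 456 windows of 5 Mb, untreated (x axis) against IFNγ (y axis), at regions with a peak in all 4 WT libraries. The ratio is centred within GC bins, so 0 marks the median ratio of regions of like GC content. Windows are marked by their number of WT_4-only regions, and the 16 windows with 5 or more lie below 0 on both axes.

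Levels over the stretches that stood out were also read in the KO libraries, which the rule did not use. The stretches were chosen after their values had been seen. For each library the log2 summit pileup at regions open in all 8 libraries was centred within GC bins, so that a value gives the level of a stretch relative to the rest of that library. Over 35 to 50 Mb of chromosome 6 (97 regions) it was −0.18 and −0.21 in WT_4, 0.39 and 0.46 in WT_5, 0.38 and 0.42 in KO_C5 and −0.19 and −0.22 in KO_D2, untreated and IFNγ. This stretch held 0 WT_4-only and 115 WT_5-only regions. Over 75 to 91 Mb of chromosome 16 (109 regions), with 0 WT_4-only and 191 WT_5-only regions, it was 0.07 and 0.13, 0.64 and 0.56, 0.61 and 0.51, and 0.08 and 0.05 in the same order. In both stretches WT_5 and KO_C5 were high, WT_4 and KO_D2 low, under either treatment.

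Over the first 10 Mb of chromosome 7 (80 regions), which held 72 WT_4-only regions (16.0% of them, in 1.85% of all regions), the level was 1.18 and 1.48 in WT_4, 0.71 and 0.63 in WT_5, 0.81 and 0.56 in KO_C5 and 1.56 and 1.34 in KO_D2. WT_4 and KO_D2 were high there. Over 25 to 84 Mb of chromosome 17 (570 regions, 68 WT_4-only) it was 0.45 and 0.56 in WT_4 and between 0.19 and 0.28 in the other 6 libraries. Over the first 5 Mb of chromosome 19 (136 regions, 18 WT_4-only) it was 0.39 and 0.42 in WT_4 and between −0.04 and 0.16 in the other 6. WT_4 alone stood apart on chromosomes 17 and 19, under either treatment. At the end of the long arm of chromosome 8 (92 regions, 18 WT_4-only) the level was 0.76 and 0.87 in WT_4, 0.44 and 0.60 in WT_5, 0.91 and 0.92 in KO_C5 and 0.70 and 0.85 in KO_D2. Over 60 to 75 Mb of chromosome 14 (91 regions, 19 WT_4-only) it was 0.47 and 0.91, 0.47 and 0.62, 0.58 and 0.54, and 0.73 and 0.78 in the same order. On chromosome 8 WT_4 lay within the range of the KO libraries, and on chromosome 14 the untreated levels of WT_4 and WT_5 were equal at this precision. DNA copy number was not measured by these lists, and its part in these levels was not tested. The local background, which the peak caller estimates around each summit, correlated at r = 0.9996 between the untreated lists of WT_4 and WT_5 (6033 summits within 20 bp of each other). Its profile along the genome therefore holds no separate measure of the clones. Its level did differ, with a median ratio WT_5 over WT_4 of 1.56 untreated and 1.24 with IFNγ.

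The KO libraries also showed where else the clone-only regions were open. Of WT_4-only regions 16.0% had a peak in KO_C5 untreated, 14.5% in KO_C5 IFNγ, 13.4% in KO_D2 untreated and 13.6% in KO_D2 IFNγ, and 30.3% had one in any KO library. For WT_5-only regions the shares were 12.9%, 68.6%, 16.1% and 49.7%, with 77.2% in any, and for all regions 35.5%, 53.4%, 34.1% and 46.6%. In the whole lists WT_5-only regions were therefore open in the IFNγ libraries of both KO clones at a share above that of all regions. In their untreated libraries the share lay below that of all regions.

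With the WT lists and the KO lists each shortened to equal length (16730 peaks in each KO list, a choice made after seeing the data), the shares of both classes differed with the treatment of the KO cells. WT_4-only regions had a peak in 41.5% and 35.2% of cases in the untreated KO_C5 and KO_D2 libraries and in 8.81% and 12.1% in the IFNγ libraries. WT_5-only regions had one in 13.3% and 33.3% in the untreated and 69.8% and 54.2% in the IFNγ libraries. All regions had one in 51.8% and 55.5% in the untreated and 57.7% and 55.8% in the IFNγ libraries. WT_5-only regions thus lay above all regions in KO_C5 IFNγ but not in KO_D2 IFNγ. For WT_4-only regions the higher shares in the untreated libraries of both KO clones held with the KO lists shortened only. With the WT lists at equal length and the KO lists whole, they had a peak in 51.6% and 35.2% of cases in the untreated and in 54.2% and 41.9% in the IFNγ libraries of KO_C5 and KO_D2. For WT_5-only regions the IFNγ libraries of both KO clones had the higher share in all 3 sets of lists. The GC content of the libraries, given above, differed in the same direction, and its part was not tested. Within 60 to 70% GC the whole lists gave 4.26%, 69.7%, 20.0% and 47.9% for WT_5-only regions, in the order KO_C5 untreated, KO_C5 IFNγ, KO_D2 untreated and KO_D2 IFNγ. All regions of that range gave 36.4%, 57.2%, 41.8% and 51.2%, and WT_4-only regions 2.58%, 4.52%, 8.39% and 11.6%.

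**Figure D5:**
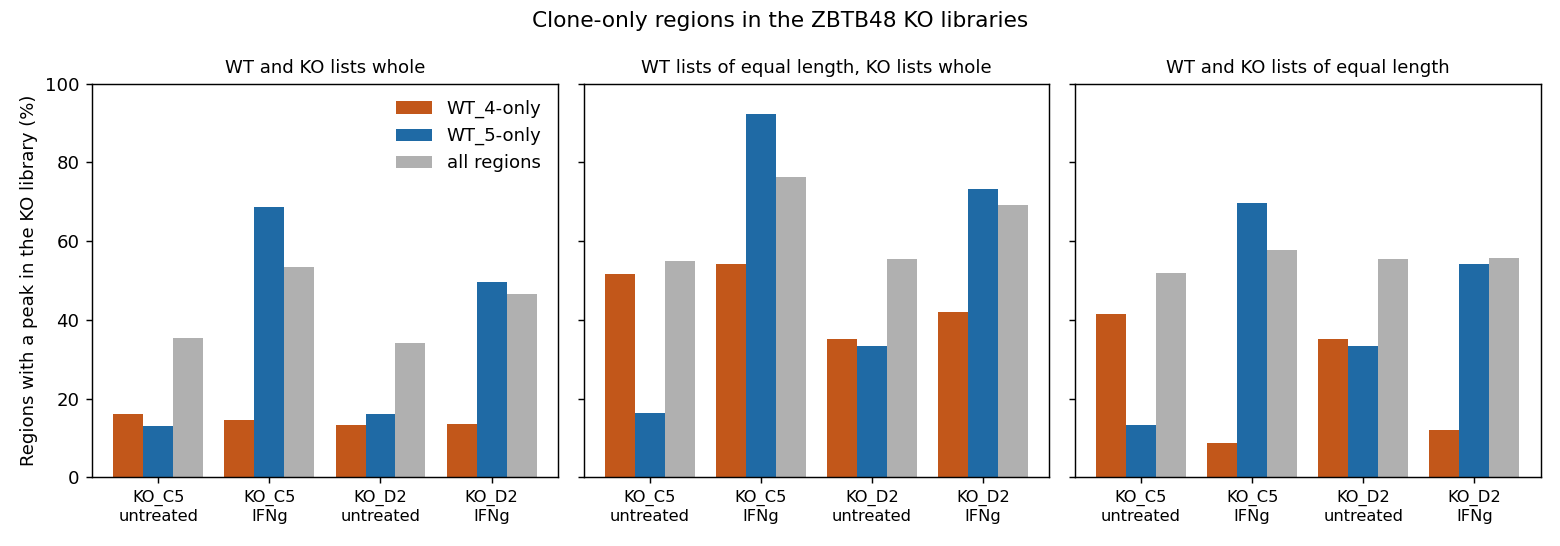
Share of WT_4-only, WT_5-only and all regions (y axis, %) with a peak in each KO library (x axis), with whole lists, with the WT lists at equal length and with both WT and KO lists at equal length. With all lists shortened, WT_4-only bars are taller in the untreated (41.5% and 35.2%) than in the IFNγ libraries (8.81% and 12.1%), and WT_5-only bars the other way round.

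Of all 6 pairs of clones, WT_4 and WT_5 had the highest share of regions in both libraries of 1 clone and neither of the other. That share was 17.7% of the pair's regions, against 4.67% for KO_C5 with KO_D2 and between 5.97% and 11.7% for the 4 pairs of a WT with a KO clone. At equal length within each pair it was 15.9% for WT_4 with WT_5, 4.22% for KO_C5 with KO_D2 and between 4.57% and 9.53% for the other 4. The pairs share clones and were not tested against each other.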

How the data were processed

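FAIRE-seq peak lists of 8 U2OS libraries were used, 1 per clone and treatment, with groups from the labels. Per the methods and labels, the authors trimmed reads with Trimmomatic, aligned them to GRCh38 with Bowtie2 2.2.5, discarded poorly mapped reads with SAMtools 1.14, and ran MACS2 2.2.7.1 on each library in paired-end mode. deepTools 3.5.1 is also named. The use of input DNA as control and the handling of duplicates are not given in the sources used here. The deposited fold enrichment is a ratio of summit pileup to local background, and the deposited −log10 p and −log10 q are the caller's p-value and q-value. The deposited score (a multiple of −log10 q) was not used. Depth is unknown, since the lists hold no read totals. No peak ran past the end of a chromosome (0 peaks).

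Peaks were joined, ranked and annotated with python 3.11.15, numpy 2.4.6, pandas 2.3.3, scipy 1.17.1 and samtools 1.23.1, using GENCODE 44 (218738 TSSs). The pileup of each peak was the whole number of fragments that gives the deposited fold enrichment and −log10 p in the Poisson test of MACS, and the step was tested on simulated data. Named regions were the 10 clone-only regions of each class that ranked highest by −log10 p (mean percentile of both lists) and whose peaks were also in the lists of equal length, the 10 such regions within 500 bp of a protein-coding TSS, the 5 windows of 1 Mb with the most clone-only regions, and listed genes with a clone-only promoter. Some listed genes are not reported here. Members, gene lists and tests were chosen with earlier results of these data known. Alternatives were lists of equal length, −log10 q of at least 3, fold enrichment of at least 4, overlap of 0.5 of the shorter peak, windows of 150 bp either side of the summit, other TSS windows and genes, and each library left out. Exact permutation tests over libraries were used for peak numbers and the Jaccard index. With nothing to say that libraries came from separate cultures, p-values measure only the spread between them.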

Additional observations from a re-analysis of the deposited data

Results flagged for a closer look

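With IFNγ the number of peaks fell by 2802 in WT_4 and rose by 7966 in WT_5, and peaks within 1 kb of a TSS rose as a share of all peaks by 2.03 percentage points in WT_4 and fell by 5.10 in WT_5. Each clone gave 1 library per treatment, so the opposite directions rest on 1 difference per clone, and the difference between clones was not tested. Peaks on sequences outside chromosomes 1 to 22, X and Y, which the comparison did not use, numbered 110 in WT_4 untreated, 50 in WT_4 IFNγ, 88 in WT_5 untreated and 121 in WT_5 IFNγ. Most were on unplaced sequences (82, 29, 63 and 89), and 1 in each library was on the mitochondrial genome.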

How the results depend on the processing

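Peak numbers stayed higher in WT_5 and the Jaccard index higher within clones under every alternative run. With lists of equal length, WT_4-only regions numbered 1623 and WT_5-only 2813, 65.1% and 35.9% of them lay within 1 kb of a TSS, and 73.1% and 95.6% had a peak in a KO library (56.9% and 80.3% with the KO lists shortened too). The share near a TSS was 67.2% (WT_4-only) and 32.7% (WT_5-only) with windows around summits, 45.9% and 24.3% within 500 bp, 68.4% and 52.6% within 5 kb, and 45.4% and 21.4% with protein-coding TSSs.

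Leaving out 1 library, which leaves 1 library for that clone, gave 566 to 4179 WT_4-only and 8941 to 18238 WT_5-only regions, and 28.8% to 58.4% and 27.7% to 33.7% of them within 1 kb of a TSS. WT_4-only regions numbered 2018 without WT_4 untreated, 4179 without WT_4 IFNγ and 1006 without WT_5 IFNγ, and WT_5-only regions 18238 without WT_5 untreated. Without WT_4 untreated the share of WT_4-only regions near a TSS, 28.8%, fell below the 33.7% of WT_5-only regions. That order therefore did not hold under the looser rule, which asks for a peak in 1 WT_4 library only. No paired test was run, since libraries could be matched by treatment only, with 1 library per clone and treatment. Matched by treatment, WT_5 had 7852 more peaks than WT_4 untreated and 18620 more with IFNγ. A peak list shows no level below the caller's limit of about 5 fragments, so a missing peak is not closed chromatin.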
